A study of Mus musculus with 12 samples.

Results

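Nr4a1, Nr4a2, Nr4a3, Egr1, Egr2 and Egr3 are transcription factor genes that T cells switch on within a short time of antigen contact. These 6 genes were taken by name from the 24417 genes of each deposited table, and all 6 were above the mean normalized count of 10 used to admit a gene to testing in each of the 4 comparisons. The cells were sorted regulatory T cells (Tregs) of NOD mice, the strain that develops autoimmune diabetes, at 6.8 weeks of age. The mice were retrogenic for 2 T cell receptors (TCRs) against insulin, which were brought in by transduced bone marrow: 4-8, of high affinity, and 12-4.4m1, of low affinity. The 4 groups were 4-8 islet, 12-4.4m1 islet, 4-8 spleen and 12-4.4m1 spleen Tregs, with 3 libraries in each and 12 in all. All cells therefore carried an insulin-specific TCR, and no group with another specificity or without antigen was among them. Whether the libraries of a group stem from separate mice, and whether same-numbered libraries share a mouse, is not in the labels, so the p-values rest on the spread among these libraries, which may be technical.

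The Nr4a genes encode nuclear receptors that act without a known hormone ligand, and the Egr genes encode zinc-finger factors that bind GC-rich sites. Both families are induced through the TCR. Calcium and calcineurin signalling to NFAT and MEF2 is among the routes to Nr4a. ERK signalling to SRF and its ELK partners is among the routes to Egr, and the routes are not exclusive to a family. Nr4a1, whose protein is called Nur77, is widely used as a readout of TCR signal strength, and the Nr4a factors are known to act on Foxp3 in Tregs. Egr2 and Egr3 are known as restraints on T cell activation. Several of these genes also belong to the immediate early genes, which many cells induce while a tissue is being taken apart.

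Promoter sequence was at hand for 4 of the 6 members (Nr4a1, Nr4a2, Nr4a3 and Egr2) in the RefSeq promoter table of build GRCm38.p6. All 4 genes rose in islet Tregs, as did Egr1, for which no window was at hand. The windows are shown because the motifs through which such genes respond to signals lie close to their start sites. Each is the 250 bases before the start site, printed 5′ to 3′ along the gene's strand. Capitals mark the motif TGACG or its reverse complement CGTCA, the core of the cAMP response element to which CREB and ATF factors bind, and in Egr2 also the CArG box, the motif of SRF. Nr4a1 lies at chr15:101266596-101266845 on the plus strand, Nr4a2 at chr2:57124004-57124253 on the minus strand, Nr4a3 at chr4:48045055-48045304 on the plus strand and Egr2 at chr10:67537619-67537868 on the plus strand.
Nr4a1: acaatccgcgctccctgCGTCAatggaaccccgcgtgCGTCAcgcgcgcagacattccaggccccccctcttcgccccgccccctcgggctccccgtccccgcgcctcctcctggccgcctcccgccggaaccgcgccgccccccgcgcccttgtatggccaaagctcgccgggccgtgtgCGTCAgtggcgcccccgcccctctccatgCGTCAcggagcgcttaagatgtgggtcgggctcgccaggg
Nr4a2: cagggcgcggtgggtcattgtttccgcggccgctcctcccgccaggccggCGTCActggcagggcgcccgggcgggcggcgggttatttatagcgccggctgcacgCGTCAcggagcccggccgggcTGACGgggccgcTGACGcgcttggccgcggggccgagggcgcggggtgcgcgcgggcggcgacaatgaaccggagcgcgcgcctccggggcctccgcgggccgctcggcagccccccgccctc
Nr4a3: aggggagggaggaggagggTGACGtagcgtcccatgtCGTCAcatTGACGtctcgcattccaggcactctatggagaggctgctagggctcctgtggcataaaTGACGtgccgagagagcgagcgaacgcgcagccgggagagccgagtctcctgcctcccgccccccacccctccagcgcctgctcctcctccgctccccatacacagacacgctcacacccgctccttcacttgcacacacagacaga
Egr2: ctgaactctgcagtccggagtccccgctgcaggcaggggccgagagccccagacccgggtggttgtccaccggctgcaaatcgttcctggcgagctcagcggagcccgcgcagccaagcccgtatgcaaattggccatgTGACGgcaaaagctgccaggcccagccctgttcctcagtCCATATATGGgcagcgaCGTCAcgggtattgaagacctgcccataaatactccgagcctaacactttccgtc

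TGACG occurred 4 times, over both strands, in each of the Nr4a1, Nr4a2 and Nr4a3 windows and 2 times in that of Egr2. Of 32851 RefSeq promoter windows of the same length, 17.8% held at least 1 match and 0.137% held at least 4. The CArG box was found 1 time in Egr2 and in 1.47% of all windows. GCGNGGGCG, an Egr-type site, occurred 1 time each in Nr4a1 and Nr4a2 and in 4.70% of all windows. The full palindrome TGACGTCA, which contains TGACG on either strand (1.55% of windows), the Nr4a monomer motif AAAGGTCA (1.34%) and the AP-1 motif TGANTCA (6.75%) were not among the letters of these 4 windows. The RefSeq start of Nr4a3 lay 5943 bases outside the start of the authors' locus for this gene, and the other 3 starts met the authors' locus.

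In the GENCODE annotation of GRCm38, each member is a protein-coding gene that no other annotated gene overlaps. Nr4a1 spans chr15:101254269-101274795, Nr4a2 chr2:57106830-57124003, Nr4a3 chr4:48045153-48086447, Egr1 chr18:34859823-34864984, Egr2 chr10:67535475-67542188 and Egr3 chr14:70077203-70082614.

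Values per library are the authors' rlog values, a log2 scale on which DESeq2 draws the counts of weakly counted genes towards the mean of the table. Each table holds the 6 libraries of one comparison and was scaled alone, so levels were compared within a table only. By title, every library but 4-8 islet replicate 3 stands in both a tissue table and a TCR table, so these comparisons share libraries. The islet TCR table holds instead a 4-8 column whose number is in no title. The group differences below are log2 differences with their standard error (SE), 95% confidence interval and adjusted p from limma over all tested genes. The sources give no read depth per library. The authors' mean normalized counts of the members were lowest for Nr4a2 in the spleen comparison, at 12.1, and highest for Nr4a1 in the islet comparison, at 395. In bulk libraries such as these, fewer cells expressing a gene and less RNA per cell cannot be told apart. Treg identity was checked with Foxp3, Il2ra, Ctla4, Ikzf2, Cd3d, Cd3e and Cd4, and all 7 were tested in every table. Between the tissues, Ctla4, Cd4 and Cd3e were higher in islets in 4-8 and Ctla4 and Cd4 in 12-4.4m1, and the others did not pass. Cd4 differed by 0.71 ± 0.15 in 4-8 (limma adjusted p = 0.00655) and 0.86 ± 0.14 in 12-4.4m1 (limma adjusted p = 0.000241). Cd3e differed by 0.52 ± 0.14 (limma adjusted p = 0.0309) and 0.41 ± 0.14 (limma adjusted p = 0.0803). The part of these in the members' differences was not tested. Between the TCRs none of the 7 passed. Of the CD8 T cell genes, Cd8a had a mean normalized count of at most 0.301 in the 4 tables and Cd8b1 of 4.94 to 8.92. Of the B cell genes, Pax5 was at 0 in all 4, Cd79a and Ms4a1 were at most 0.901, Cd79b was at 0.545 to 12.7 and Cd22 at 2.53 to 13.1, both highest in the spleen TCR table.

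Islet Tregs carried far more Nr4a message than spleen Tregs under both TCRs. In all, 5 of the 6 members rose in islets in each tissue comparison, against a background of 5.14% of 8981 tested genes called higher in islets for 4-8 and 4.63% of 8438 for 12-4.4m1. The 3 Nr4a genes had the larger differences, between 2.09 and 2.83, followed by Egr1 and Egr2, between 1.09 and 1.37, while Egr3 did not pass in either. Among the 8981 genes ranked by p in 4-8, Nr4a3, Nr4a2 and Nr4a1 stood at places 12, 16 and 17. In 12-4.4m1, Nr4a1, Nr4a3 and Nr4a2 stood at places 14, 15 and 25 of 8438. The members' median difference was 1.70 in 4-8 and 1.73 in 12-4.4m1, beside medians of -0.012 and -0.0023 over all tested genes. The same 5 members were also those whose islet and spleen libraries did not overlap, where 14.3% of tested genes in 4-8 and 13.2% in 12-4.4m1 lay wholly higher in islets. The number of genes called overall moved with single libraries, from 717 to 306, 370 and 326 without 4-8 spleen replicates 1, 2 and 3 and to 1211 without 4-8 islet replicate 2, and from 575 to 288 and 313 without 12-4.4m1 spleen replicates 1 and 2. In every one of these fits 5 members were called.

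**Figure D1:**
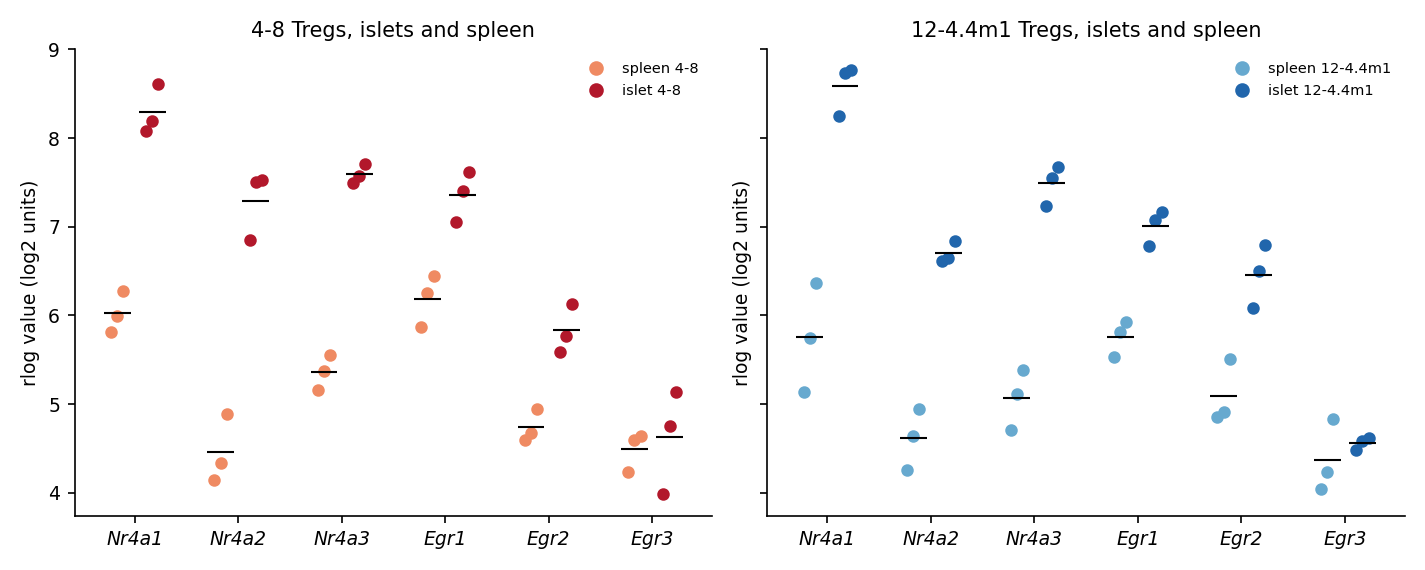
rlog value (log2 scale, y axis) of the 6 members in each library of the 2 tissue comparisons, with points for libraries and lines for group means. Islet libraries lie above all spleen libraries for Nr4a1, Nr4a2, Nr4a3, Egr1 and Egr2 under both TCRs, and the Egr3 libraries overlap.

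Nr4a1 reached rlog values of 8.08, 8.61 and 8.20 in 4-8 islet replicates 1, 2 and 3, against 5.82, 6.0 and 6.27 in spleen replicates 1, 2 and 3. The lowest islet library thus stood well above the highest spleen library. The difference was 2.27 ± 0.18 (SE, 95% interval 1.89 to 2.65, limma adjusted p = 2.21e-07, n = 3 per group). In the 12-4.4m1 table, Nr4a1 was at 8.76, 8.74 and 8.25 in islet replicates 1, 2 and 3 and at 5.14, 5.74 and 6.37 in spleen. Spleen replicate 3 was the highest of the spleen libraries and replicate 1 the lowest, and none came near the islet values. The difference was 2.83 ± 0.22 (95% interval 2.37 to 3.29, limma adjusted p = 1.52e-09).

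Nr4a2, whose product Nurr1 is best known from dopaminergic neurons, had the largest difference of any member in 4-8 cells. It was at 7.53, 7.51 and 6.85 in islet replicates 1, 2 and 3 and at 4.89, 4.15 and 4.34 in spleen. Islet replicate 3 was the lowest of the islet libraries and still lay above every spleen library. The difference was 2.83 ± 0.22 (95% interval 2.36 to 3.31, limma adjusted p = 2.21e-07). In 12-4.4m1 cells the islet values were 6.83, 6.62 and 6.65 and the spleen values 4.26, 4.64 and 4.94. The islet libraries were close together here, and the groups did not overlap. The difference of 2.09 ± 0.20 (95% interval 1.68 to 2.49, limma adjusted p = 3.61e-08) stands beside that of 4-8, but the tables were scaled separately and the 2 differences were not tested against each other.

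Nr4a3, which encodes NOR-1, had closely spaced islet values in 4-8. It was at 7.57, 7.70 and 7.50 in 4-8 islet replicates 1, 2 and 3 and at 5.16, 5.37 and 5.55 in spleen, a difference of 2.23 ± 0.17 (95% interval 1.87 to 2.59, limma adjusted p = 1.52e-07). In 12-4.4m1 it was at 7.68, 7.23 and 7.55 in islets and at 4.70, 5.11 and 5.38 in spleen, a difference of 2.42 ± 0.19 (95% interval 2.03 to 2.82, limma adjusted p = 1.97e-09). In neither table did an islet library come near a spleen library.

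Egr1, an ERK-driven immediate early factor, was at 7.05, 7.62 and 7.40 in 4-8 islet replicates 1, 2 and 3 and at 5.87, 6.44 and 6.25 in spleen. The difference was 1.17 ± 0.19 (95% interval 0.76 to 1.57, limma adjusted p = 0.000757). In 12-4.4m1 it was at 7.08, 6.78 and 7.17 in islets and at 5.53, 5.81 and 5.93 in spleen, a difference of 1.25 ± 0.18 (95% interval 0.89 to 1.62, limma adjusted p = 3.71e-05). The groups did not overlap in either table, but the gap between the highest spleen library and the lowest islet library was narrower than for the Nr4a genes.

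Egr2 was at 5.77, 5.59 and 6.13 in 4-8 islet replicates 1, 2 and 3 and at 4.67, 4.59 and 4.95 in spleen, a difference of 1.09 ± 0.19 (95% interval 0.68 to 1.5, limma adjusted p = 0.00157). In 12-4.4m1 its islet values were 6.80, 6.50 and 6.08 and its spleen values 4.85, 4.91 and 5.51. The difference was 1.37 ± 0.21 (95% interval 0.93 to 1.81, limma adjusted p = 0.000113). Islet replicate 3 was the lowest and spleen replicate 3 the highest of their groups, and they stayed apart.

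Egr3, the closest relative of Egr2 in function, showed no such separation. It was at 4.76, 5.14 and 3.98 in 4-8 islet replicates 1, 2 and 3 and at 4.64, 4.59 and 4.23 in spleen. Islet replicate 3 was the lowest of the 6 libraries and islet replicate 2 the highest. The difference was 0.14 ± 0.24 (95% interval -0.38 to 0.65, limma adjusted p = 0.801), and without islet replicate 2 it was -0.12. In 12-4.4m1 Egr3 was at 4.62, 4.58 and 4.49 in islets and at 4.05, 4.24 and 4.83 in spleen, a difference of 0.19 ± 0.21 (95% interval -0.24 to 0.62, limma adjusted p = 0.666). Both intervals end below the point estimates of Egr1 and Egr2 in the same tables.

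**Figure D2:**
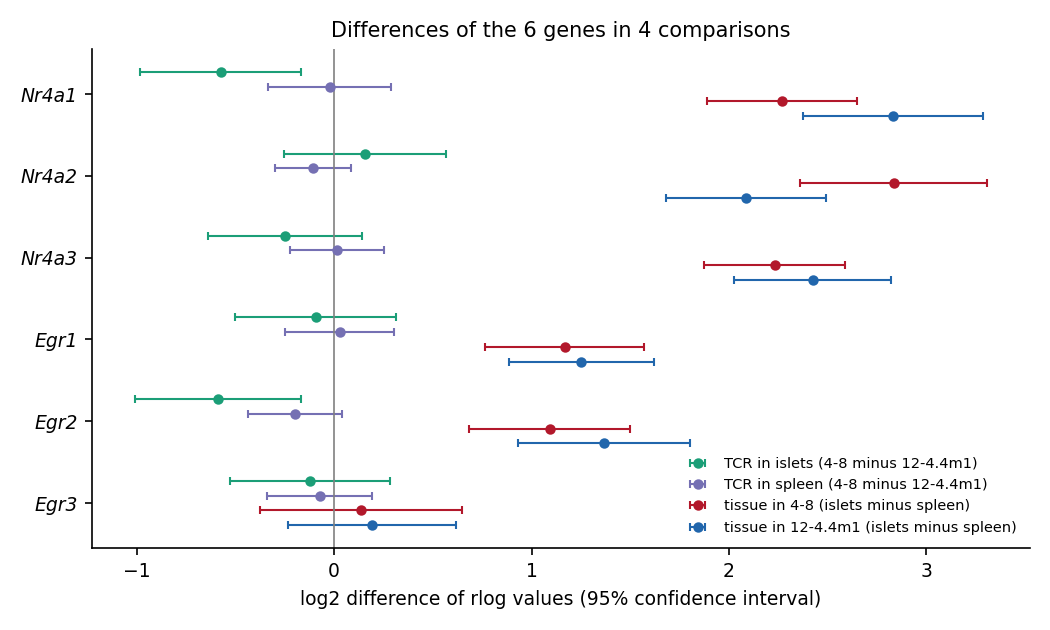
Log2 difference of each member in each of the 4 comparisons with its 95% confidence interval from limma. In both tissue comparisons the intervals of 5 members lie above 0 and that of Egr3 spans it, and in the TCR comparisons the islet differences of Nr4a1 and Egr2, -0.57 and -0.59, are the lowest.

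In the authors' deposited DESeq2 table, whose fold changes are not taken from rlog values, the islet minus spleen log2 differences were wider. They were 3.20 for Nr4a1, 4.47 for Nr4a2, 3.27 for Nr4a3, 1.69 for Egr1 and 1.86 for Egr2 in 4-8. In 12-4.4m1 the authors' deposited table gave 3.76 for Nr4a1, 3.26 for Nr4a2, 3.51 for Nr4a3, 1.83 for Egr1 and 2.13 for Egr2. The highest of the authors' adjusted p-values among these 5 genes was 0.000676, for Egr2 in 4-8. For Egr3 the authors' deposited values were 0.29 (adjusted p = 0.868) in 4-8 and 0.34 (adjusted p = 0.857) in 12-4.4m1.

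Levels can be set side by side between genes only per transcript length, for which the authors' deposited tables give 1 FPKM value per group, with no spread of its own. In 4-8 islet Tregs the authors' FPKM ran from Nr4a1 at 128 through Nr4a2 at 60.2, Egr1 at 51.3, Nr4a3 at 23.4 and Egr2 at 21 to Egr3 at 7.45. The 12-4.4m1 islet order in the authors' table was Nr4a1 at 216, Egr1 at 54.3, Nr4a2 at 46.1, Egr2 at 42.8, Nr4a3 at 30.4 and Egr3 at 8.37. Nr4a1 thus had the highest and Egr3 the lowest level in both islet groups, and whether neighbours in the order differ beyond their spread could not be tested. In 4-8 spleen Tregs the authors' FPKM was 13.6 for Egr1, 12.6 for Nr4a1, 4.09 for Egr2, 2.09 for Nr4a2, 1.51 for Nr4a3 and 0.645 for Egr3. The 12-4.4m1 spleen values in the authors' table were 14.9 for Nr4a1, 13.1 for Egr1, 7.93 for Egr2, 3.25 for Nr4a2, 2.50 for Egr3 and 1.34 for Nr4a3. Egr1 and Nr4a1 led in both spleen groups.

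**Figure D3:**
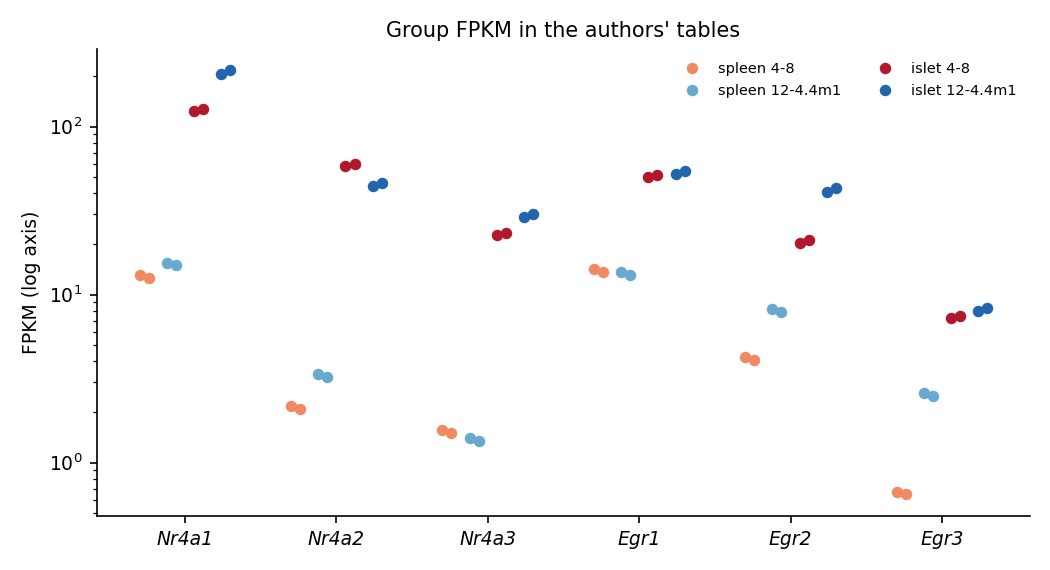
The authors' FPKM (log axis) of each member in each of the 4 groups, with a point from the TCR table and a point from the tissue table for each group, and no error bars since each is a single value. In the tissue tables Nr4a1 is the highest member in both islet groups, at 128 and 216, and Egr3 the lowest, at 7.45 and 8.37.

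The ratios of islet to spleen FPKM in the authors' deposited tables were 10.2 for Nr4a1, 28.8 for Nr4a2, 15.5 for Nr4a3, 3.77 for Egr1 and 5.13 for Egr2 in 4-8. In 12-4.4m1 they were 14.5, 14.2, 22.7, 4.14 and 5.40 in the same order. Of these 10 contrasts, the authors' Cuffdiff q-value was above 0.05 for Nr4a3 in 12-4.4m1 only, at 0.0759. Egr3 was the member for which the authors' deposited measures parted. Its FPKM was 11.5 times higher in islets in 4-8 and 3.34 times in 12-4.4m1, while its rlog values overlapped and its mean normalized counts were 27 and 23.9. Cuffdiff marked Egr3 as not tested in both tables. The authors' locus for Egr3 covers 2713 bases and the annotated gene 5412. The locus was shorter than the gene for every other member too, as for Nr4a1, at 7949 against 20527 bases. The part of this in the gap between the measures was not tested.

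**Figure D4:**
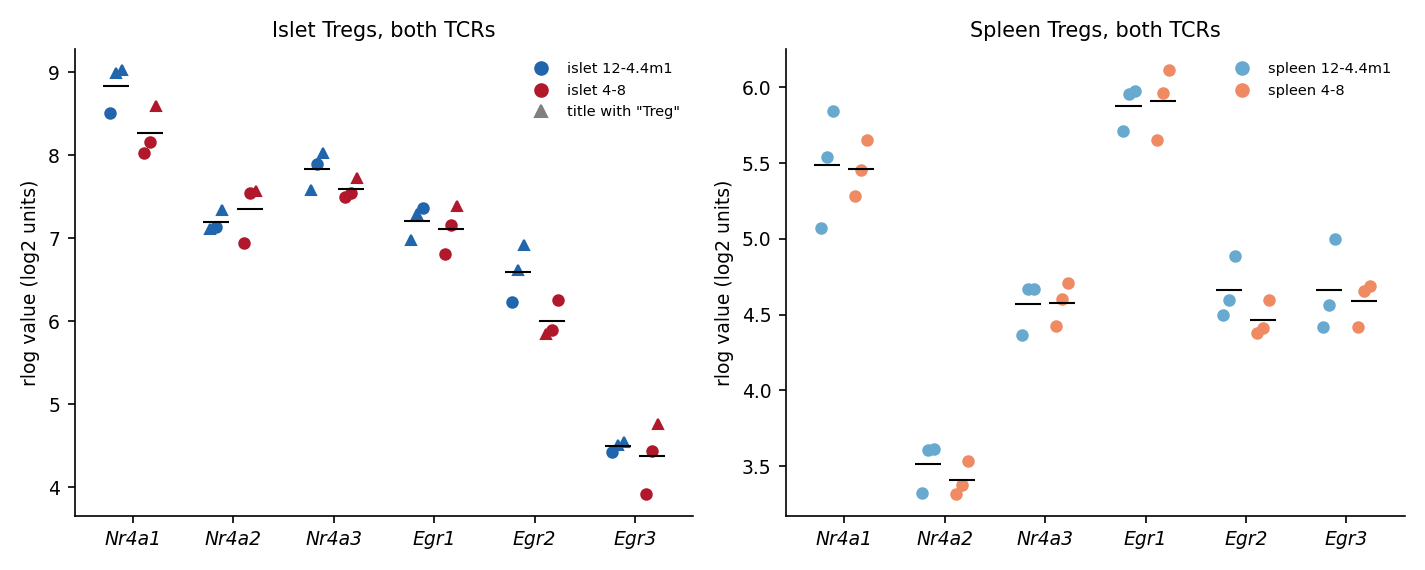
rlog value (log2 scale, y axis) of the 6 members in each library of the 2 TCR comparisons, with points for libraries, lines for group means and triangles for islet libraries titled with the word Treg. The 4-8 and 12-4.4m1 libraries overlap for every member in both tissues, most narrowly for Nr4a1 and Egr2 in islets.

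The second question was whether these genes differed between the TCRs within a tissue. Each affinity is that of a single TCR, so affinity cannot be told apart from other properties of these receptors. None of the 6 members passed between the TCRs, in islets or in spleen, where 0.365% of 8212 and 0.428% of 9108 tested genes were called in either direction. All 6 overlapped between the TCRs in both tissues, against 11.9% and 13.3% of tested genes whose libraries did not. At an unadjusted p of at most 0.05 stood 2 members in islets (Nr4a1 and Egr2) and none in spleen, beside 6.78% and 7.93% of all tested genes at that level. The overall counts were small and moved with single libraries, from 30 to 11 and 9 without 12-4.4m1 islet replicates 2 and 1, and from 39 to 16, 14 and 23 without 12-4.4m1 spleen replicate 2 and 4-8 spleen replicates 3 and 2.

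In islets Nr4a1 was at 9.02, 8.99 and 8.50 in 12-4.4m1 replicates 1, 2 and 3. Its 4-8 values were 8.03 in replicate 1, 8.60 in replicate 2 and 8.16 in the library whose column carries no number found in the titles. The groups overlapped only through 4-8 replicate 2 and 12-4.4m1 replicate 3. The 3 libraries of 4-8 averaged 8.26 ± 0.30 (SD) and the 3 of 12-4.4m1 averaged 8.84 ± 0.29 (SD). The difference, 4-8 minus 12-4.4m1, was -0.57 ± 0.20 (95% interval -0.98 to -0.17, unadjusted p = 0.00746, limma adjusted p = 0.382). The authors' deposited DESeq2 table gave -0.68 (adjusted p = 0.286), and the authors' FPKM was 124 in 4-8 and 207 in 12-4.4m1 (Cuffdiff q = 0.0838).

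The islet difference of Egr2 was of like size. Egr2 was at 6.91, 6.62 and 6.23 in 12-4.4m1 replicates 1, 2 and 3, and at 5.89 in 4-8 replicate 1, 5.84 in 4-8 replicate 2 and 6.26 in the unnumbered 4-8 library. Only the unnumbered library reached the range of the other TCR. The difference was -0.59 ± 0.21 (95% interval -1.01 to -0.17, unadjusted p = 0.00780, limma adjusted p = 0.382). By the authors' deposited tables the DESeq2 difference was -0.76 (adjusted p = 0.868) and the FPKM 20.4 in 4-8 against 41.0 in 12-4.4m1 (Cuffdiff q = 0.101). By p, Nr4a1 and Egr2 stood at places 159 and 167 of 8212, with lower mean values in 4-8 cells, and neither passed the adjusted threshold. With replicate number as a term in the fit, the unnumbered 4-8 library and 12-4.4m1 replicate 3 had no partner and did not enter the difference. These are the libraries through which the groups overlapped. On replicates 1 and 2 of each TCR, Egr2 passed, at -0.90 ± 0.24 (limma adjusted p = 0.0270). With the unnumbered library also taken as replicate 3, Egr2 did not pass (limma adjusted p = 0.299).

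The titles of the islet libraries come in 2 styles, and 2 of the 3 12-4.4m1 libraries but 1 of the 3 4-8 libraries are titled with the word Treg. What the styles stand for is not given in the sources used here. Nr4a1 lay between 8.60 and 9.02 in the 3 libraries titled Treg and between 8.03 and 8.50 in the other 3, without overlap. Egr3 also separated by title style, at 4.51 to 4.76 against 3.91 to 4.44, while Egr2 did not, at 5.84 to 6.91 against 5.89 to 6.26. The share of all tested genes that separate by title style was not counted, so these separations have no background beside them. With title style as a term in the fit, the TCR difference was -0.41 ± 0.17 for Nr4a1 (limma adjusted p = 0.442) and -0.54 ± 0.20 for Egr2 (limma adjusted p = 0.349). All spleen libraries share 1 style. With both Treg-titled libraries of the 12-4.4m1 tissue comparison left out, the islet minus spleen differences were 2.50 for Nr4a1, 2.04 for Nr4a2, 2.49 for Nr4a3, 1.41 for Egr1 and 0.99 for Egr2, the last with a limma adjusted p of 0.0170, and 1 islet library assumed to vary like the rest.

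The other members showed smaller differences between TCRs in islets. Nr4a2 was 0.16 ± 0.20 higher in 4-8 (95% interval -0.26 to 0.57, limma adjusted p = 0.934). Nr4a3 differed by -0.25 ± 0.19 (95% interval -0.64 to 0.14, limma adjusted p = 0.853), Egr1 by -0.09 ± 0.20 (95% interval -0.50 to 0.32) and Egr3 by -0.12 ± 0.20 (95% interval -0.53 to 0.28). These intervals reach from -0.64, for Nr4a3, to 0.57, for Nr4a2, so differences of that size on the log2 scale could have gone undetected.

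In spleen no member passed between the TCRs. Mean normalized counts of all members but Egr3 were lower than in the islet comparison, and rlog draws such values together. The sizes of the spleen differences were therefore not ranked against those of islets. Egr2 was at 4.5, 4.59 and 4.89 in 12-4.4m1 replicates 1, 2 and 3 and at 4.41, 4.38 and 4.60 in 4-8, a difference of -0.20 ± 0.12 (95% interval -0.44 to 0.04, limma adjusted p = 0.731). The authors' deposited FPKM for Egr2 was 4.27 in 4-8 and 8.22 in 12-4.4m1 (Cuffdiff q = 0.354). Nr4a1 was at 5.07, 5.54 and 5.84 in 12-4.4m1 and at 5.28, 5.45 and 5.65 in 4-8, a difference of -0.02 ± 0.15 (95% interval -0.33 to 0.29). Nr4a2, Nr4a3, Egr1 and Egr3 had differences of -0.11, 0.01, 0.03 and -0.07. The authors' FPKM in 4-8 and 12-4.4m1 was 2.18 and 3.38 for Nr4a2 and 1.57 and 1.39 for Nr4a3. It was 14.2 and 13.6 for Egr1 and 0.672 and 2.59 for Egr3. Cuffdiff marked Nr4a2, Nr4a3 and Egr3 as not tested here. Nr4a2 was near the lower end of the tested range in spleen, with rlog values of 3.31 to 3.61 over the 6 libraries, and its interval ran from -0.30 to 0.08. The TCR difference in islets and that in spleen come from tables scaled separately and were not tested against each other.

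Most genes of the signalling steps that lead to Nr4a and Egr did not pass in the tissue comparisons. In 12-4.4m1 the share that rose was above the background in both lists, though it rested on few genes. The 5.14% and 4.63% given above are the background for the counts of genes higher in islets for 4-8 and 12-4.4m1, and 2.84% and 2.18% of tested genes were called lower. Among ERK pathway members, SRF, its ELK partners and the Egr corepressors Nab1 and Nab2, none of 10 tested genes passed in 4-8. In 12-4.4m1, 2 of 10 rose: Elk4 by 0.69 ± 0.18 (limma adjusted p = 0.0199) and Nab2, which binds Egr proteins and limits their activity, by 0.62 ± 0.19 (limma adjusted p = 0.0442). Among NFAT, calcineurin and MEF2 genes, 1 of 12 rose in 4-8 and 3 of 11 in 12-4.4m1. Hdac7, a class IIa deacetylase known to hold Nr4a1 silent through MEF2D in thymocytes, rose in both, by 1.06 ± 0.15 (limma adjusted p = 0.000173) and by 0.59 ± 0.17 (limma adjusted p = 0.0343). Nfatc2 rose by 0.89 ± 0.15 (limma adjusted p = 0.000329) and Mef2d by 0.80 ± 0.20 (limma adjusted p = 0.0145) in 12-4.4m1, where their 4-8 values were 0.36 (adjusted p = 0.194) and 0.55 (adjusted p = 0.0868). The list medians were 0.21 and 0.15 for the first list and 0.0092 and 0.13 for the second.

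Some genes linked to Egr2 and Egr3, many of them restraints on T cell activation, rose in islets. In 4-8, 5 of 13 tested genes rose and 1 fell, with a list median of 0.28, and in 12-4.4m1 4 of 11 rose and none fell, with a median of 0.47. Lag3, an inhibitory receptor that binds class II MHC, rose by 3.02 ± 0.18 (limma adjusted p = 8.27e-09) and by 1.48 ± 0.19 (limma adjusted p = 5.93e-06). The cell cycle inhibitor Cdkn1a rose by 1.33 ± 0.21 and by 0.74 ± 0.22, with adjusted p-values of 0.000558 and 0.0405. Cblb, a ubiquitin ligase that damps TCR signalling, rose by 0.77 ± 0.17 (adjusted p = 0.00778) and by 0.68 ± 0.16 (adjusted p = 0.00988). Tnfrsf9, the receptor 4-1BB, rose by 0.95 ± 0.15 in 4-8, as did Sema7a by 1.22 ± 0.23, while Dgkz, a diacylglycerol kinase, rose by 0.69 ± 0.19 in 12-4.4m1. Nrn1, which encodes neuritin, fell by 1.1 ± 0.20 in 4-8 (limma adjusted p = 0.00210). Sema7a, and Cblb in 4-8, were named after their values were seen.

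**Figure D5:**
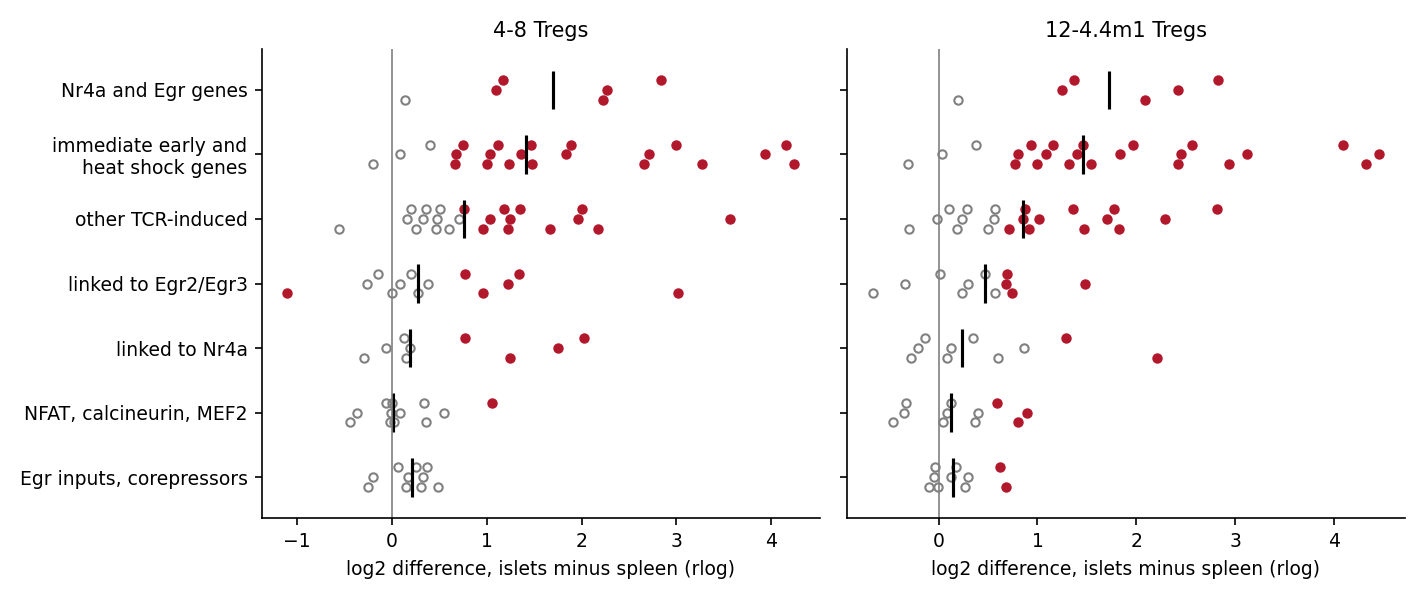
Log2 difference, islets minus spleen, of every tested gene in each gene list for the 2 TCRs, with a black line at the list median and filled points for genes past the adjusted threshold. The members and the immediate early and stress list have the highest medians, 1.70 and 1.41 in 4-8 and 1.73 and 1.46 in 12-4.4m1.

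Some genes linked to Nr4a, drawn from Treg identity and from exhaustion, rose as well. In 4-8, 4 of 9 tested genes rose: Ctla4, the inhibitory receptor central to Treg function, by 2.03 ± 0.15, Tigit by 1.75 ± 0.18, Pdcd1, which encodes PD-1, by 1.24 ± 0.16 and Havcr2, which encodes TIM-3, by 0.77 ± 0.19 (limma adjusted p = 0.0174 for Havcr2, the highest of these). In 12-4.4m1, 2 of 10 rose, Ctla4 by 2.21 ± 0.16 and Tigit by 1.29 ± 0.20, while Pdcd1 at 0.60 (adjusted p = 0.0529) and Havcr2 at 0.87 (adjusted p = 0.0540) did not pass. Foxp3, the defining Treg factor, was 9.72 in islets and 9.78 in spleen in 4-8, a difference of -0.06 ± 0.14 (limma adjusted p = 0.854). In 12-4.4m1 Foxp3 was 9.24 and 9.15, a difference of 0.08 ± 0.15 (limma adjusted p = 0.812). The list medians were 0.18 and 0.24.

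Other genes that T cells induce through the TCR gave 12 of 23 tested genes higher and none lower in 4-8, and 12 of 21 higher and none lower in 12-4.4m1, with medians of 0.76 and 0.85. Rgs16, a regulator of G protein signalling, rose by 3.56 ± 0.22 and 2.82 ± 0.17. The NF-kB inhibitor Tnfaip3, which encodes A20, rose by 2.17 ± 0.13 and 2.29 ± 0.14. Bhlhe40, a transcription factor of activated T cells, rose by 1.66 ± 0.16 and 1.83 ± 0.17. The ERK phosphatase Dusp5 rose by 2.0 ± 0.15 in 4-8 and Nfkbid, an atypical IkB protein, by 1.78 ± 0.18 in 12-4.4m1. All had limma adjusted p-values of at most 2.91e-06. Tnfrsf9 stands in this list and in that of Egr2 and Egr3.

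A list of immediate early and heat shock genes, which are induced by antigen and also by the release of cells from tissue, moved with the members. In 4-8, 19 of 22 tested genes rose and none fell, with a median of 1.41, and in 12-4.4m1 20 of 23 rose and none fell, with a median of 1.46. Fos, a subunit of AP-1, rose by 4.24 ± 0.18 in 4-8 (limma adjusted p = 1.19e-10) and by 4.46 ± 0.19 in 12-4.4m1 (limma adjusted p = 1.51e-14). The inducible heat shock protein gene Hspa1a rose by 4.15 ± 0.20 and 4.32 ± 0.19, its neighbour Hspa1b by 3.94 ± 0.17 and 4.09 ± 0.22, and the MAP kinase phosphatase Dusp1 by 3.0 ± 0.16 and 3.12 ± 0.19. Hspa1a and Hspa1b are near-identical copies, so reads may be divided between them. Ier2, Ier5 and Mcl1, singled out after their values were seen, did not pass in either table: Ier2 was 0.40 and 0.37, Ier5 0.08 and 0.04, and Mcl1 -0.20 and -0.31. How the islets and spleens were taken apart is not given in the sources used here, and the part of cell isolation in the members' difference was not tested.

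Pancreatic acinar genes also moved with tissue, with 5 of 7 tested genes higher in islets in 4-8 and 5 of 6 in 12-4.4m1. Ctrb1, a digestive protease and the strongest of them, rose by 2.16 ± 0.29 and 2.32 ± 0.21 (limma adjusted p = 9.69e-05 and 3.00e-08), while Amy2a5 was at 0 in both. Their summed level on the linear scale (2 raised to the rlog value) was 90.9 to 180 in 4-8 islet libraries and 158 to 213 in 12-4.4m1 islet libraries. The spleen sums in these tables, 61.7 to 69.2 and 72.2 to 80.8, are no measure of acinar RNA in spleen, since rlog draws low values towards the table mean. In the table of spleen libraries alone, Cela3b, Cpa1, Pnlip, Amy2a5 and Clps had a mean normalized count of 0, Ctrb1 was at 0.301, Prss2 was highest at 8.11, and the list summed to 12.3 to 13.8. Myeloid genes gave sums of 453 to 551 in islets and 452 to 547 in spleen for 4-8, and of 248 to 337 and 306 to 321 for 12-4.4m1, and none of their tested genes passed. These sums are mostly Cst3, at mean normalized counts of 460 and 280. The other myeloid genes were at most 23.2, for Cd68 in 4-8, so the sums say little about them. Of the 6 islet endocrine genes, none was tested in 4-8 and only Gcg in 12-4.4m1, since the others were under a mean normalized count of 10. In the table of spleen libraries alone Ins1, Ins2, Iapp and Pdx1 were at 0, and in that of islet libraries alone the mean normalized counts were 2.88 for Ins1, 3.56 for Ins2, 0.0794 for Iapp and 0 for Pdx1. In 4-8 the islet libraries of Ins1, Ins2 and Iapp all lay above those of spleen, at mean normalized counts of 0.769, 0.711 and 0.118. Those of Gcg all lay below, and those of Chga overlapped. The share of genes at such low counts that do not overlap was not counted. The glucagon gene Gcg, of alpha cells, had mean rlog values of 1.69 in islets and 1.90 in spleen in 4-8, and of 2.72 and 3.44 in 12-4.4m1, where it did not pass (limma adjusted p = 0.0571). The 6 genes, Ins1, Ins2, Iapp, Pdx1, Chga and Gcg, summed to 5.95 to 6.32 in islets and 6.34 to 6.66 in spleen for 4-8, and to 11.6 to 13 and 12.0 to 23.5 for 12-4.4m1. The part of acinar or endocrine RNA in the members' difference was not tested.

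Between the TCRs, 4 of these lists held no gene that passed in either tissue, beside backgrounds of 0.365% in islets and 0.428% in spleen. They were the Nr4a-linked, other TCR-induced, ERK and Egr corepressor, and NFAT, calcineurin and MEF2 genes. The immediate early and heat shock list likewise had none of 23 in islets, with a median of -0.25, and none of 16 in spleen, with a median of -0.02. Its leading genes in islets pointed the same way as Nr4a1 and Egr2 without passing: Hspa1a -0.78 (limma adjusted p = 0.0722), Hspa1b -0.75 (limma adjusted p = 0.0829), Fos -0.55 (limma adjusted p = 0.325) and Dnajb1 -0.57 (limma adjusted p = 0.387). Their part in the islet values of Nr4a1 and Egr2 was not tested. In the Egr2 and Egr3 list, Lag3 was higher in 4-8 by 2.55 ± 0.21 in islets (limma adjusted p = 3.16e-09) and by 0.71 ± 0.13 in spleen (limma adjusted p = 0.00669), and Fasl, the death ligand, by 0.66 ± 0.13 in spleen (limma adjusted p = 0.0128). Egr2 was at -0.59 in islets and -0.20 in spleen without passing, and its part in the Lag3 and Fasl differences was not tested.

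Likeness to each member was measured by Pearson's r over the 6 libraries of a table, averaged over the 4 tables, among 7928 genes tested in all of them. It is a description, since the tables share libraries and tissue separates the libraries in 2 of them. Nr4a1 and Nr4a3 had a mean r of 0.87, with 0.99 and 0.98 in the tissue tables, 0.91 in the spleen TCR table and 0.59 in the islet TCR table. Nr4a1 was also like Egr2 (0.85), and its nearest gene was Dnajb4, a heat shock protein 40 family member (0.89), followed after Nr4a3 by Skil (0.86). Nr4a3 was nearest to Rgs1, a regulator of G protein signalling in lymphocytes (0.93), Sbno2 (0.90) and, after Nr4a1 and Skil, Egr1 (0.85). For Egr1 itself the nearest genes were Brf1 (0.90), Rnf149 (0.90), Sh2b1 (0.89) and Fmnl3 (0.86).

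Egr2 was most like Birc3 (0.87), an inhibitor of apoptosis protein, Kdm6b (0.86), a histone demethylase, P2rx7 (0.86), Rnf40 (0.86) and Zfp36 (0.86), which promotes decay of cytokine messages. For Nr4a2 the mean r was 0.59 with Nr4a1 and 0.61 with Nr4a3, and in the islet TCR table its r was -0.45 with Egr2 and 0.75 with Egr3. Its nearest genes were Slc5a3 (0.80), Zfand5 (0.80), Zfp52 (0.80), Atf4 (0.79), a stress-response transcription factor, and Ulk1 (0.77), an autophagy kinase. Egr3 had mean r values between 0.24 and 0.55 with the other members and was nearest to Mex3c (0.91), Gsap (0.89), Dis3l2 (0.87), Abcc5 (0.86) and Mtrr (0.85).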

How the data were processed

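Sorted Tregs were lysed in Triton X-100, and reverse transcription, cDNA amplification and Nextera XT followed, per the labels' protocols. Per the submitters' processing notes, the tools were STAR 1.1.0, TopHat 1.0.0, DESeq2 1.1.0, DESeq and Cufflinks and the build mm10 (GRCm38), with no roles given. The authors deposited rlog values on a log2 scale for each library, 1 table per comparison. Per the file headers, the authors' DESeq2 tables hold the mean normalized count of a gene, a signal averaged over 6 libraries, with its log2 fold change, p-value and adjusted p. Their sign was turned here to 4-8 minus 12-4.4m1 and islets minus spleen. Per the file headers, the Cuffdiff tables hold 1 FPKM value per group, with its p-value and q-value.

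Genes with a mean normalized count of at least 10 were tested in each table with limma 3.58.1 (R 4.3.3; lmFit, eBayes with trend, 2-sided), 3 libraries against 3, with Benjamini-Hochberg adjustment over all tested genes and a threshold of 0.05. An exact permutation test of 3 against 3 cannot give a p below 0.1, so none was used. Rows of duplicated symbols, 4 per comparison, were left out. One column of the islet TCR table matched its group but no title number. Spleen replicate 2 of each TCR has a description that lists the tissue table of the other TCR, and columns were assigned by title. Same-numbered libraries did not all deviate together, so no block was used.

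The members and gene lists were chosen with earlier results of these data known. Named were the 6 members, Foxp3, up to 4 genes of smallest p per list and comparison, marker lists as counts and sums, and the 5 genes most like each member. Alternatives were other filters, scalings and variance settings, the replicate block, a term for title style, and leaving out libraries. Promoter windows came from RefSeq (GRCm38.p6) and gene positions from GENCODE release 21 (GRCm38).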

Additional observations from a re-analysis of the deposited data

How the results depend on the processing

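The 5 members higher in islets kept their direction and their call in both tissue comparisons under every alternative in which they were tested. With a mean normalized count of at least 50 only 4 members were tested in 4-8, and all 4 were called. Counts of called genes moved more. In the islet TCR comparison 30 genes were called, 15 at a mean normalized count of at least 50 and 52 with title style in the fit, and between 9 and 44 with 1 library left out. In the spleen TCR comparison 39 were called, 17 without the variance trend and 11 with both libraries numbered 2 left out, and between 14 and 56 with 1 library left out. Leaving out 1 library gave 306 to 1211 genes for tissue in 4-8 and 288 to 610 in 12-4.4m1.

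Outside the spleen TCR comparison, same-numbered libraries did not stand out by their correlation. In spleen each library correlated best with its own number, at r of 0.12, 0.0865 and 0.0748, as a hint from the data and not the design. In the other tables r of same-numbered libraries was between -0.118 and 0.127. The unnumbered islet 4-8 library had an r of 0.209 with islet 12-4.4m1 replicate 3. A replicate block gave 54 called genes in the islet and 78 in the spleen TCR comparison. In islets the block left the libraries without a partner, 12-4.4m1 replicate 3 and the unnumbered 4-8 library, out of the difference. The block called 1 member, Egr2 in islets at -0.90 ± 0.24 (limma adjusted p = 0.0270), and put Egr3 there at 0.071. With the unnumbered library taken as replicate 3, an alternative added after seeing the data, Egr2 was at -0.59 (limma adjusted p = 0.299).

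Differences near 0 changed sign when 1 library was left out. Between TCRs in islets, Egr1 ran from -0.23 to 0.063 (the highest without 4-8 replicate 1) and Egr3 from -0.32 to 0.10 (the highest without the unnumbered 4-8 library). Between TCRs in spleen, Nr4a1 ran from -0.23 to 0.16, Nr4a3 from -0.090 to 0.090, Egr1 from -0.074 to 0.16 and Egr3 from -0.19 to 0.096. With both spleen libraries numbered 2 left out, Nr4a1 was 0.011 and Egr1 -0.036. For tissue in 4-8, Egr3 ran from -0.12 (without islet replicate 2) to 0.46. The cause was not tested. With 3 libraries per group and no read depth given, differences of the size seen between the TCRs are at the limit of what these tables resolve.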
